A study of Homo sapiens with 6 samples.

Results

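This account covers the 10 genes of the interferon-inducible antigen processing machinery in MDA-MB-231 cells treated with nitidine chloride (NCD): the immunoproteasome subunits PSMB8, PSMB9 and PSMB10, the proteasome activator subunits PSME1 and PSME2, the peptide transporter subunits TAP1 and TAP2, the loading factor TAPBP (tapasin) and the trimming aminopeptidases ERAP1 and ERAP2. They were chosen by name, as genes of one pathway, and each matched 1 of the 63241 Ensembl genes counted. All 10 were expressed in every library. MDA-MB-231 is an established human triple-negative breast cancer cell line (labelled tumor cells, genotype WT). It was grown in DMEM with fetal calf serum and exposed for 24 h to 5 μM NCD, a plant alkaloid that the study follows as an immunotherapy candidate, or to 0.1% DMSO, the vehicle. No DMSO percentage is given for the NCD libraries. Bulk RNA was sequenced from 3 libraries per group. The study used the comparison to ask how NCD acts on immune gene expression in the tumor cells themselves.

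Cells display fragments of their own proteins on MHC class I molecules, and CD8+ T cells read them. The proteasome cuts the proteins, TAP carries the peptides into the endoplasmic reticulum, ERAP1 and ERAP2 shorten them, and tapasin bridges TAP to empty class I molecules while a peptide is fitted. Interferon-gamma is the best known inducer of this set: it replaces the constitutive catalytic subunits PSMB6 (beta1), PSMB7 (beta2) and PSMB5 (beta5) by PSMB9 (beta1i), PSMB10 (beta2i) and PSMB8 (beta5i), and adds the PSME1-PSME2 cap (PA28) to the core. PSMB8, PSMB9, TAP1 and TAP2 lie side by side in the MHC class II region of chromosome 6, with TAPBP further along the same arm.

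In GENCODE 29 on GRCh38, chromosome 6 holds TAP2 (ENSG00000204267) from 32821833 to 32838780 on the minus strand, PSMB8 (ENSG00000204264) from 32840717 to 32844703 on the minus strand, and PSMB9 (ENSG00000240065) from 32844136 to 32859585 on the plus strand. The same chromosome holds TAP1 (ENSG00000168394) from 32845209 to 32853978 on the minus strand and TAPBP (ENSG00000231925) from 33299694 to 33314387 on the minus strand. Chromosome 14 holds PSME1 (ENSG00000092010) from 24136158 to 24138967 on the plus strand and PSME2 (ENSG00000100911) from 24143362 to 24147570 on the minus strand, and chromosome 5 holds ERAP1 (ENSG00000164307) from 96760810 to 96808100 on the minus strand and ERAP2 (ENSG00000164308) from 96875939 to 96919716 on the plus strand. PSMB10 (ENSG00000205220) runs from 67934502 to 67937087 on the minus strand of chromosome 16.

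Of the 10 genes, 9 shared a sequence feature at their starts. Promoter windows of 250 bases before and 50 bases after each annotated start were read from RefSeq (GRCh38.p14), which gave 14 windows for the 10 genes. Both strands were searched for the core of the interferon-stimulated response element (ISRE, GAAANNGAAA), the sequence read by IRF factors. It was found in at least 1 window of every gene but PSMB9, against 3.57% of the 35116 windows of all genes and 4.38% of 27305 genes. The 9 stretches are printed because they are what these promoters have in common, 30 bases each, 5′ to 3′ along the gene, with the ISRE letters in capitals. In TAP1, PSMB8, PSME1 and ERAP1 the match lay on the other strand and so appears as TTTCNNTTTC. In TAP1 and TAPBP 2 matches overlapped.
TAP1, chr6:32853816-32853845, minus strand: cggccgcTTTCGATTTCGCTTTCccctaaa
TAP2, chr6:32838778-32838807, minus strand: ctggggaagcGAAAGCGAAAgctgcccgag
TAPBP, chr6:33314076-33314105, minus strand: tttggagGAAAGTGAAAGTGAAAggaggaa
PSMB8, chr6:32844032-32844061, minus strand: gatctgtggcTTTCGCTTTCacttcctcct
PSMB10, chr16:67936852-67936881, minus strand: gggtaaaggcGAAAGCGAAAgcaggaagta
PSME1, chr14:24136189-24136218, plus strand: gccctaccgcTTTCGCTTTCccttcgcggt
PSME2, chr14:24146619-24146648, minus strand: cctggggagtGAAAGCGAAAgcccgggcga
ERAP1, chr5:96807924-96807953, minus strand: cgggctccacTTTCACTTTCggtcctgggg
ERAP2, chr5:96876460-96876489, plus strand: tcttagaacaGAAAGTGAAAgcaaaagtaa
Most matches sat close to the start. The first base was 4 bases upstream in PSMB8, 20 in TAPBP, 21 in PSMB10, 28 in PSME2, 30 in ERAP2 and 58 in TAP2. In ERAP1 and PSME1 it was 2 and 5 bases downstream, inside the transcript. TAP1 was the exception, with matches 134 and 128 bases upstream. A match describes letters in a window and is neither evidence of binding nor of a cause of the changes below.

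The gamma-activated sequence (GAS, TTCNNNGAA), known from interferon-gamma responsive promoters, was found in 7.66% of all windows and 9.38% of all genes. It was found in 2 of the 10 genes, 65 bases before the start of PSMB8 and 189 bases before the second annotated start of TAP1. The 10-letter NF-kB consensus site was found in 5.91% of all windows, in 7.09% of all genes and in 3 of the 10, TAP1, TAPBP and ERAP1. The GC box (GGGCGG) was in 45.0% of all windows, in 48.3% of all genes and in 7 of the 10, so it set them less apart. The PSMB8 GAS stretch is printed with the 250 bases before the starts of TAP1 and TAPBP, the only 2 of the 10 genes that had both ISRE and NF-kB letters before the start. Capitals mark GAS in the first, and the ISRE and NF-kB letters in the other sequences.
PSMB8 GAS, chr6:32844093-32844122, minus strand: aactgtccttTTCTCGGAAaaggcaggggg
TAP1 promoter, chr6:32853705-32853954, minus strand: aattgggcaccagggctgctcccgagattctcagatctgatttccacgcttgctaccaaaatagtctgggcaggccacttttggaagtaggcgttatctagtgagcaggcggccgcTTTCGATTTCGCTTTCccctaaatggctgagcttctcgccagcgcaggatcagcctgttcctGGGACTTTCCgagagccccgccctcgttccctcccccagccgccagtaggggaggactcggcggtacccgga
TAPBP promoter, chr6:33314079-33314328, minus strand: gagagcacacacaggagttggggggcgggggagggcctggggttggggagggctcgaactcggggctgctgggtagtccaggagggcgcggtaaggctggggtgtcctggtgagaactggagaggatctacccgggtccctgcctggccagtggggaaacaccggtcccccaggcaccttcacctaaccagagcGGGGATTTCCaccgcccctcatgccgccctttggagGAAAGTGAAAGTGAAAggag
TAP1 and PSMB9 are transcribed away from each other, from starts 487 bases apart. In the PSMB9 window none of the ISRE, GAS or NF-kB letters was found. The 2 ISRE matches of TAP1 lay between these starts, 354 and 360 bases before that of PSMB9 and so outside its window. The plot of motif matches shows all 14 windows on 1 scale.

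**Figure D1:**
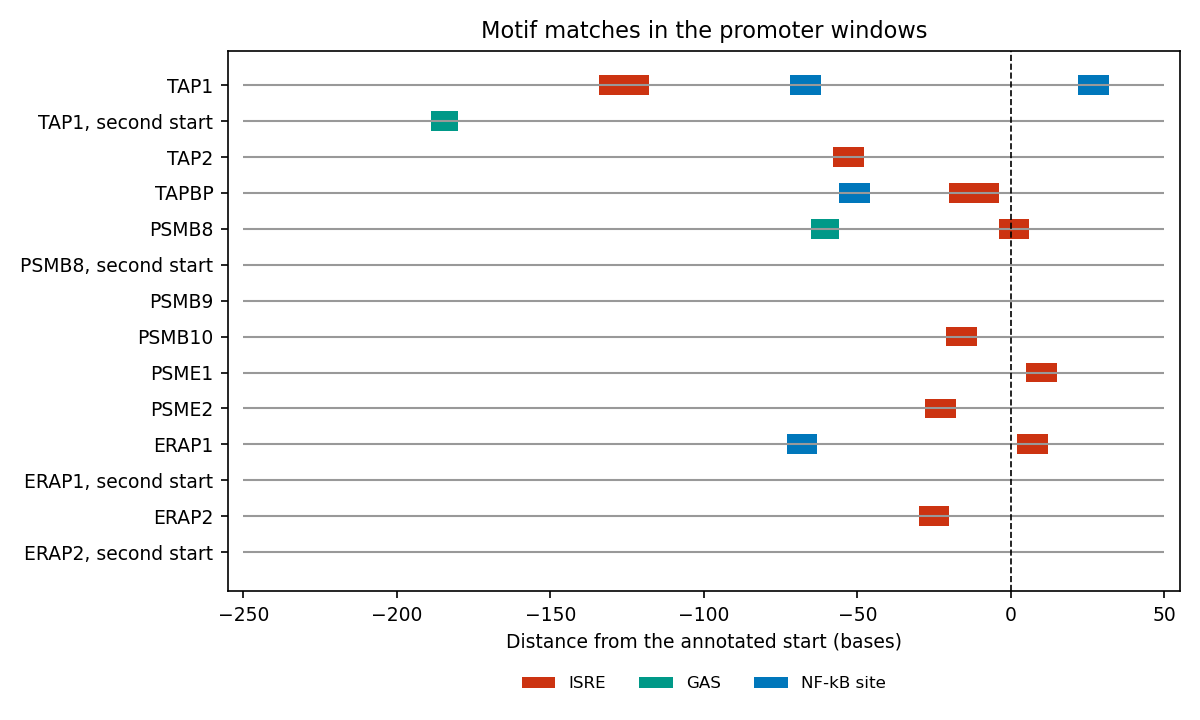
Matches to 3 motifs in the RefSeq promoter windows of the 10 genes, 1 line per annotated start, with the distance from the start in bases on the x axis (0 marks the start, negative values lie before it) and 1 colour per motif. The ISRE matches of 8 of the 9 genes that have one begin within 58 bases of the start, and those of TAP1 lie further upstream.

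All 10 genes were higher in each NCD library than in each DMSO library. Values are CPM, counts divided by library size, with the library sizes scaled by TMM to correct for differences in composition. The groups were compared by edgeR's quasi-likelihood test over 15295 genes, and p-values were adjusted by the Benjamini-Hochberg method. A call required an adjusted p under 0.05 together with a log2 fold change beyond 1 in either direction. On both criteria 3 of the 10 rose (TAP1, PSMB9 and PSMB8) and none fell, where 13.5% of all tested genes were higher and 17.5% lower (31.0% either way). No gene of the 10 was lower at an unadjusted p below 0.05 by edgeR either, beside 5398 of the 15295 tested genes. DESeq2 and limma-voom also counted 3 higher and 0 lower. At the adjusted p alone, with no fold threshold, all 10 rose, where 35.3% of all tested genes were higher, 34.1% lower and 69.3% differed either way. Groups that did not overlap were found for 72.6% of all tested genes, with NCD above DMSO in 37.2% and below in 35.3%. The median log2 fold change was 0.80 for the 10 genes and 0.04 for all tested genes.

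The labels name 1 cell line and do not say that the libraries came from separate cultures, so the p-values measure the spread between these libraries, which may be technical. The descriptions of NCD replicates 2 and 3 name MDA-MB-232 and MDA-MB-233, against MDA-MB-231 in their cell line field. With NCD replicate 1 alone in the NCD group, assumed to vary as the DMSO libraries do, the counts for the 10 genes were the same, 3 called and 10 at any fold. Library totals lay between 18223594 and 19410833 counts for DMSO and between 18232169 and 21629653 for NCD, and the 10 genes held between 147 and 4362 counts per library. Scaling by library totals instead of TMM turned the split of all calls from 2067 higher and 2669 lower to 2792 higher and 2184 lower. The median over all tested genes moved with it from 0.04 to 0.23 on the log2 scale, and that of the 10 genes from 0.80 to 0.99. In bulk RNA, fewer cells of a type and less RNA per cell cannot be told apart.

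**Figure D2:**
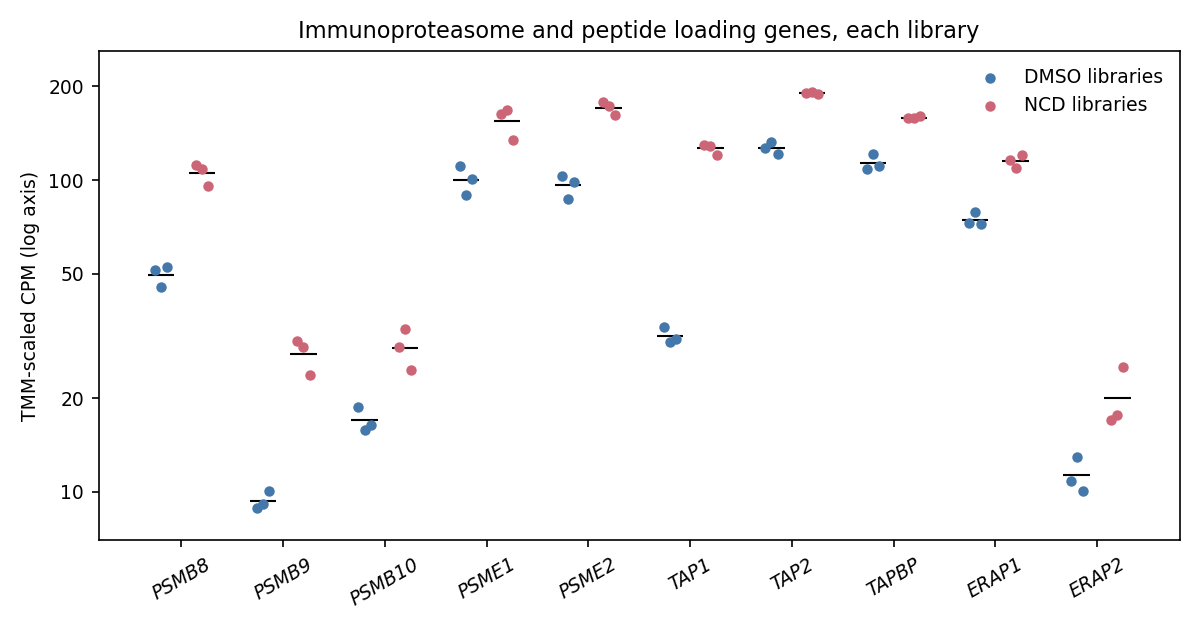
Expression of the 10 genes in each of the 6 libraries, in TMM-scaled CPM on a log axis. Points are libraries (blue DMSO, red NCD) and bars are group means, and for every gene the 3 NCD points lie above the 3 DMSO points, with the widest gap for TAP1 and the widest NCD scatter for ERAP2.

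TAP1, the transporter subunit that pairs with TAP2, showed the largest rise of the 10. It was measured at 33.7, 30.3 and 31.0 CPM in the DMSO libraries and at 129.7, 129.0 and 120.2 CPM in the NCD libraries. The NCD libraries lay close together and far above the DMSO range. The mean went from 31.7 ± 1.78 to 126.3 ± 5.29 CPM (SD, n = 3), 3.99-fold. In log2 terms this was 2.0 (standard error 0.07, adjusted p = 4.18e-08 by edgeR), higher than 96.9% of all tested genes. TAP2, its partner, started higher and moved less. Its CPM were 126.5, 132.2 and 121.3 with DMSO and 190.6, 191.9 and 188.5 with NCD, with little scatter among the NCD libraries. It rose by 0.59 on the log2 scale (standard error 0.06, adjusted p = 1.49e-05 by edgeR), or 1.503-fold. TAPBP, which holds class I molecules at the transporter, had 108.7, 121.2 and 111.4 CPM with DMSO and 158.2, 157.7 and 160.0 CPM with NCD. Its rise of 0.48 on the log2 scale (standard error 0.06, adjusted p = 9.11e-05 by edgeR), 1.39-fold, was the smallest of the 10.

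The 3 immunoproteasome subunits rose by unequal amounts. PSMB9 had 8.86, 9.17 and 10.1 CPM in the DMSO libraries and 30.5, 29.1 and 23.6 CPM in the NCD libraries. Its mean went from 9.37 ± 0.639 to 27.7 ± 3.604 CPM (SD, n = 3), a rise of 1.56 on the log2 scale (standard error 0.12, adjusted p = 3.74e-06 by edgeR). PSMB8 encodes the subunit with the chymotrypsin-like activity of the immunoproteasome. It had 51.3, 45.4 and 52.6 CPM with DMSO and 112.0, 108.9 and 95.6 CPM with NCD. Its rise of 1.08 on the log2 scale (standard error 0.09, adjusted p = 4.52e-06 by edgeR) lay close to the fold threshold, yet stayed between 1.01 and 1.13 when any 1 library was left out. PSMB10, the only gene of the 3 outside the MHC region (chromosome 16), had 18.7, 15.8 and 16.3 CPM with DMSO and 29.1, 33.4 and 24.6 CPM with NCD. Its change of 0.77 (standard error 0.13, adjusted p = 0.000476 by edgeR) did not reach the fold threshold.

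PSME1 and PSME2 encode the alpha and beta subunits of the PA28 ring, which opens the core particle without ATP. Their genes lie close together on chromosome 14, on opposite strands. PSME1 had 110.6, 89.7 and 100.5 CPM with DMSO and 163.5, 167.9 and 134.2 CPM with NCD. PSME2 had 102.8, 87.0 and 98.9 CPM with DMSO and 178.6, 172.8 and 161.3 CPM with NCD. Both were at like CPM before treatment and both rose, PSME2 by 0.83 (standard error 0.08, adjusted p = 1.21e-05) and PSME1 by 0.63 (standard error 0.10, adjusted p = 0.000536) on the log2 scale in edgeR's test.

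ERAP1 and ERAP2, neighbours on chromosome 5, trim peptides from the amino end in the endoplasmic reticulum. ERAP1 had 72.9, 78.9 and 72.5 CPM with DMSO and 115.7, 109.4 and 120.4 CPM with NCD, a rise of 0.62 on the log2 scale (standard error 0.06, adjusted p = 2.74e-05 by edgeR). ERAP2 had 10.8, 12.96 and 10.1 CPM with DMSO and 17.04, 17.6 and 25.1 CPM with NCD. NCD replicate 3 stood above the other two NCD libraries for this gene. ERAP2 rose by 0.82 (standard error 0.17, adjusted p = 0.00206 by edgeR), and by 0.60 without NCD replicate 3 (adjusted p = 0.00158 by edgeR).

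**Figure D3:**
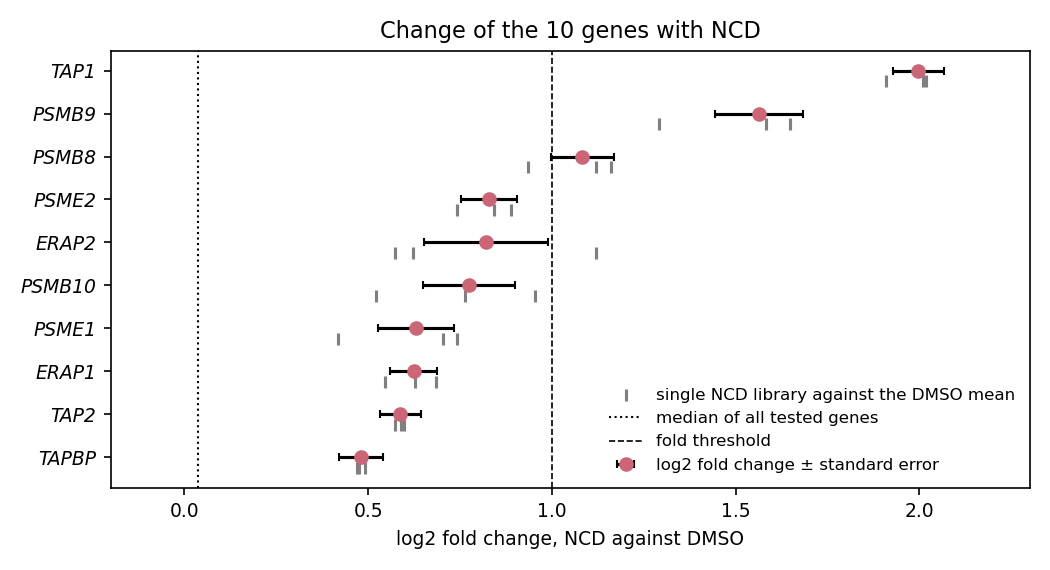
Log2 fold change of each of the 10 genes, NCD against DMSO, with its standard error (red points and bars), and each NCD library against the DMSO mean (grey ticks). The dashed line is the fold threshold and the dotted line the median of all tested genes (0.04): TAP1, PSMB9 and PSMB8 lie past the threshold and all 10 lie above the median.

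The same NCD library was not high for every gene. NCD replicate 3 was the lowest of the NCD libraries for the 5 proteasome genes PSMB8, PSMB9, PSMB10, PSME1 and PSME2 and for TAP1 and TAP2, and the highest for ERAP1, ERAP2 and TAPBP. Its deviation from the NCD mean on the log2 scale ran from -0.23 for PSMB10 to 0.35 for ERAP2. NCD replicate 3 also stood apart beyond these 10 genes. Over the counted genes, chi-square per degree of freedom was 14.4 and 12.9 against NCD replicates 1 and 2, and 2.05 between those. In every fit that left out 1 library, 3 of the 10 genes were called higher and all 10 rose at any fold.

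Levels can be compared between genes only per length. Divided by the length of the main transcript (CPM per kb), the DMSO levels ran from 99.7 for PSME1 to 1.98 for ERAP2. Between them came PSME2 (68.5) and TAPBP (60.3), whose libraries overlapped, then TAP2 (50.7) and PSMB8 (44.3). A lower group held PSMB10 (13.9) and ERAP1 (13.6), which overlapped, and PSMB9 (11.98) and TAP1 (10.7), which overlapped as well. With NCD the order changed: PSMB8 (93.9 CPM per kb) passed TAPBP (84.0) and TAP2 (76.2), and TAP1 (42.7) and PSMB9 (35.5) passed PSMB10 (23.8) and ERAP1 (21.0). PSME1 (154.3) and PSME2 (121.7) stayed at the top and ERAP2 (3.49) at the bottom. In the NCD libraries PSMB10 and ERAP1 were the only neighbours in this order that overlapped.

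Each inducible catalytic subunit stood higher against the constitutive subunit whose place it takes in all NCD libraries than in any DMSO library. PSMB5, the constitutive counterpart of PSMB8, differed by 0.21 on the log2 scale (standard error 0.10, adjusted p = 0.0818 by edgeR), and PSMB6, that of PSMB9, by 0.12 (standard error 0.08, adjusted p = 0.231 by edgeR). Neither passed the test in this fit. With library totals in place of TMM both did, at 0.41 for PSMB5 (adjusted p = 0.00252 by edgeR) and 0.31 for PSMB6 (adjusted p = 0.00316 by edgeR). PSMB5 also passed with the ribosomal protein reference, with no low-count filter, without DMSO replicate 1 and without NCD replicate 3, at 0.21 to 0.28. PSMB7, the counterpart of PSMB10, had 469.0, 361.8 and 412.4 CPM with DMSO and 225.9, 219.1 and 186.7 CPM with NCD. It fell by 0.98 on the log2 scale (standard error 0.11, adjusted p = 3.66e-05 by edgeR), just short of the fold threshold, which it passed without DMSO replicate 2 (-1.07), DMSO replicate 3 (-1.01), NCD replicate 1 (-1.05) or NCD replicate 2 (-1.0).

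On the scale of CPM per kb, PSMB8 stood at 0.336 ± 0.0240 of PSMB5 with DMSO and at 0.612 ± 0.0244 with NCD (SD, n = 3). PSMB9 stood at 0.0510 ± 0.00659 of PSMB6 with DMSO and at 0.138 ± 0.0102 with NCD. PSMB10 stood at 0.0331 ± 0.00186 of PSMB7 with DMSO and at 0.111 ± 0.0103 with NCD. In all 3 pairs the constitutive transcript stayed the more abundant one. The log2 ratio within a library was higher with NCD by 0.86 for PSMB8 to PSMB5, by 1.39 for PSMB9 to PSMB6 and by 1.72 for PSMB10 to PSMB7. PSMB10, with the smallest rise of the 3, thus had the largest difference of ratio, where PSMB7 fell. An exact two-sided permutation test gave p = 0.1 for each of these pairs, the smallest value that 3 against 3 libraries allow (0.117 after Benjamini-Hochberg adjustment over the 7 pairs compared).

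**Figure D4:**
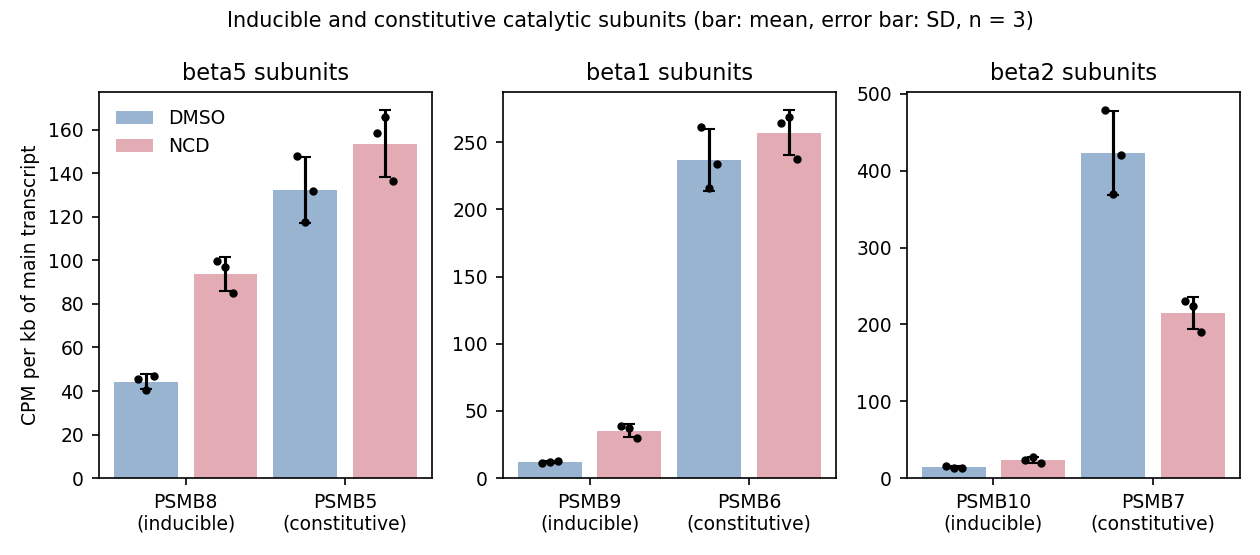
Inducible and constitutive catalytic subunits in CPM per kb of main transcript, 1 panel per position in the core. Bars are group means (blue DMSO, red NCD), error bars the SD of 3 libraries and points the libraries. PSMB8 and PSMB9 are higher with NCD beside PSMB5 and PSMB6. The smaller differences of PSMB5 and PSMB6 passed the test with library totals but not in the main fit. PSMB7 goes from 422.9 to 214.9 beside a higher PSMB10.

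The other 4 pairs compared partners within the set. TAP1 stood at 0.211 ± 0.0160 of TAP2 in CPM per kb with DMSO and at 0.560 ± 0.0190 with NCD, and the log2 ratio was higher by 1.39 with NCD. The log2 ratio of TAP1 to PSMB9, its divergent neighbour, was higher by 0.47. That of PSME1 to PSME2 differed by -0.20, with all 3 NCD ratios below all DMSO ratios. For these 3 pairs the exact two-sided permutation test again gave its smallest p, 0.1 (0.117 adjusted over the 7 pairs). For ERAP1 to ERAP2 the difference was -0.16 with overlapping libraries (exact permutation p = 0.5, adjusted p = 0.5), and it was 0.05 with NCD replicate 1 alone in the NCD group.

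Neighbouring and overlapping genes bear on some of these counts, since how the counting treated strand was not stated. On chromosome 6 the annotated span of PSMB9 overlaps TAP1 and PSMB8, both on the minus strand, and reads from opposite strands cannot be told apart without strand. PSMB8-AS1, an antisense RNA in the same place, had counts of 40.9, 51.1 and 47.2 with DMSO and of 143.7, 131.3 and 135.2 with NCD. It lies on the same strand as PSMB9, whose counts were 147, 162 and 184 with DMSO, against 697, 562 and 507 with NCD, and the split of reads between the pair is uncertain. ERAP1 overlaps CAST, the calpain inhibitor gene on the plus strand. CAST counts were 4231, 4927 and 4549 with DMSO, against 2902, 2240 and 3302 with NCD, the opposite direction to ERAP1. PSME2 overlaps RNF31 on the other strand, with 189 to 233 counts with DMSO and 439 to 451 with NCD against at least 1538 for PSME2. Named PSME2 pseudogenes had at most 0.99 counts.

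Most of the rest of the proteasome was not called in either direction. The list held 43 constitutive proteasome genes (core, regulatory particle, assembly factors and other activators). Of these, 0 were called higher and 3 lower, beside 13.5% and 17.5% of all tested genes. At any fold 11 rose and 10 fell, beside 35.3% and 34.1% of all. DESeq2 and limma-voom also called 0 higher and 3 lower. At an unadjusted p below 0.05 edgeR counted 11 higher and 10 lower, beside 5600 and 5398 of all 15295 tested genes. The median log2 fold change of the 43 was -0.02. The 3 called lower were PSMD1 (-1.74), a scaffold subunit of the regulatory particle, PSMD14 (-1.52), its deubiquitinase, and PSME4 (-1.66), the PA200 activator. All 3 are long genes, of 103.7 to 116.0 kb. None of the 14 core subunits outside the immunoproteasome was called, and 2 rose and 4 fell at any fold, PSMB7 among the latter.

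The class I molecules that receive the peptides were also higher. Of 15 tested loading partners, 4 were called higher and 1 lower, beside 13.5% and 17.5% of all tested genes. The median log2 fold change of these 15 was 0.61. HLA-E went from 175.4 ± 5.51 to 460.6 ± 15.7 CPM (SD, n = 3; log2 fold change 1.39), HLA-C from 126.7 ± 3.91 to 277.1 ± 28.2 CPM (1.13) and HLA-B from 252.5 ± 4.34 to 527.3 ± 30.8 CPM (1.06). These class I genes are close copies of each other, so the split of reads among them is uncertain. UGGT1, the glycoprotein folding sensor, was the 1 called lower (-2.01). The fourth called higher, HLA-F (1.79), and the following genes were singled out after their values were seen. The light chain B2M (0.64, adjusted p = 0.000312 by edgeR) rose by less than the fold threshold. Of the general chaperones, CALR, the calreticulin of the loading complex, fell by 0.51 and PDIA3 fell by 0.24, and CANX differed by -0.03 (adjusted p = 0.665 by edgeR). ERP29, an endoplasmic reticulum chaperone (0.61, adjusted p = 1.93e-05 by edgeR), and the tapasin relative TAPBPL (0.93, adjusted p = 0.00526 by edgeR) rose.

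Other peptidases trim or destroy peptides in the cytosol and in endosomes. Of 14 tested, 0 were called higher and 5 lower by edgeR, DESeq2 and limma-voom alike. Over all tested genes edgeR called 13.5% higher and 17.5% lower. At any fold 2 rose and 10 fell, beside 35.3% and 34.1% of all. The median of the 14 was -0.76. The 3 with the smallest p were PREP (-1.47), NLN (-1.59) and IDE (-1.66). The other two were TPP2 (-1.67) and LNPEP (-1.40), the insulin-regulated aminopeptidase of the same family as ERAP1 and ERAP2, again named after their values were seen. These 5 genes span 82.96 to 149.5 kb.

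Among known regulators of the set, 8 of 33 tested were called higher and 3 lower, beside 13.5% and 17.5% of all tested genes, with a median log2 fold change of 0.28. IRF1, which drives TAP1, PSMB9 and class I genes after interferon, went from 13.8 ± 0.822 to 56.5 ± 1.56 CPM (SD, n = 3), or 2.04 on the log2 scale (standard error 0.08, adjusted p = 6.22e-08 by edgeR). IRF7 (2.49) and NFKB2 (1.87) were also higher. Called lower were NFKB1 (-2.08) and the kinases JAK1 (-1.15) and JAK2 (-1.61) of the interferon receptors, genes of 116.0 to 143.8 kb. NLRC5, the class I transactivator, rose by 0.51 (adjusted p = 0.000804 by edgeR), and RELA rose by 0.67 (adjusted p = 1.70e-05 by edgeR).

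Of the ligands known to induce the set, 6 were counted. IFNG, IFNB1 and IFNL2 had 0 counts in all 6 libraries. This allows up to 3 counts per library, or 0.139 to 0.165 CPM by library totals without TMM. IFNL1 had 0 counts throughout the DMSO group and 7, 10 and 6 in the NCD group, and IFNL3 had 0 throughout the DMSO group and 1, 4 and 0 in the NCD group. The counts of TNF were 0, 0 and 2 with DMSO and 1, 0 and 5 with NCD. None of these genes passed the filter on low counts, and they were not tested.

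PSMB8, PSMB9, TAP1, TAP2 and TAPBP share the MHC class II region and its flank with many other genes. Of 22 tested neighbours 3 were called higher (13.6%, near the 13.5% of all tested genes) and 0 lower (beside 17.5% of all). DESeq2 and limma-voom each called 2 higher and 0 lower, and the median log2 fold change was 0.20. At any fold 11 were higher and 3 lower, beside 35.3% and 34.1% of all tested genes. An unadjusted p below 0.05 by edgeR also gave 11 and 3, beside 5600 and 5398 of all 15295 tested genes. HLA-DMB, which loads class II molecules, was called higher at 1.36. The other calls rest on few counts: COL11A2 (2.54) went from a mean of 0.195 to 1.14 CPM and HLA-DQB1 (1.08) from 0.537 to 1.12 CPM. For HLA-DQB1 the groups overlapped, with 12 counts in DMSO replicate 2 and 12 in NCD replicate 2.

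**Figure D5:**
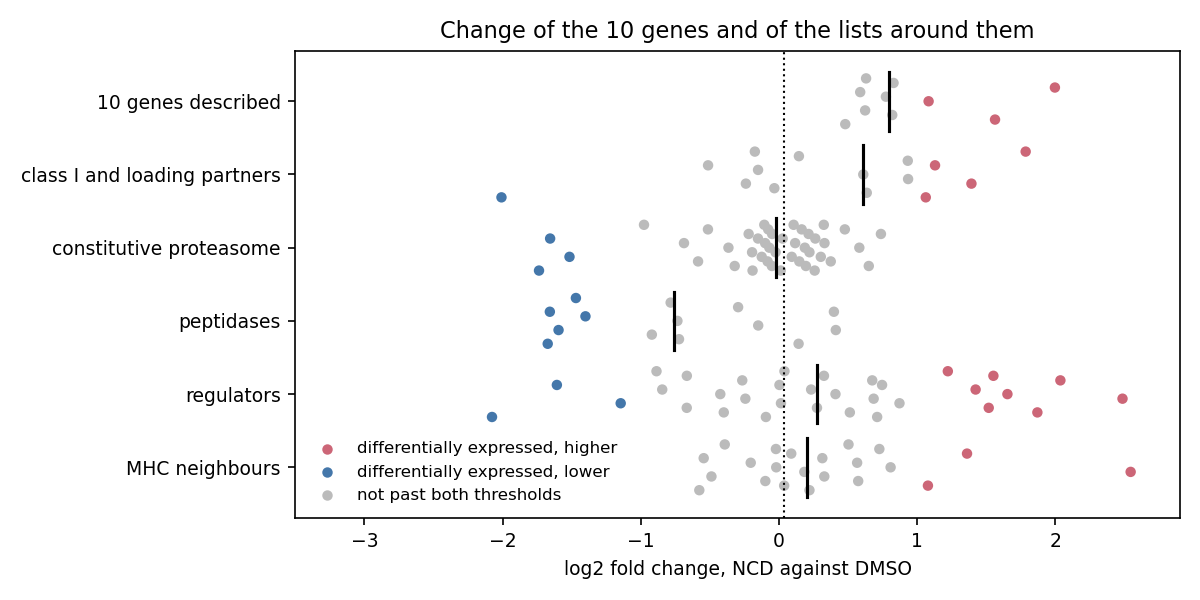
Log2 fold change, NCD against DMSO, of the 10 genes and of 5 lists around them, 1 point per tested gene, coloured where a gene was called higher (red) or lower (blue). Black bars are list medians, from 0.80 for the 10 genes to -0.76 for the peptidases, and the dotted line is the median of all tested genes (0.04).

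Genes elsewhere with the same promoter letters differed in both directions. Of 430 tested genes outside the set with an ISRE match, 73 were called higher (16.98%) and 85 lower (19.8%), and their median log2 fold change was 0.02. Of 10636 tested genes without a match 12.1% were called higher, and their median was also 0.02.

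Gene length moved with the response over all genes, and the 10 genes are short to middling. Their spans ran from 2.59 kb for PSMB10 to 47.3 kb for ERAP1. Over deciles of the tested genes by span, the median log2 fold change was 0.24 for the decile of PSMB10 and PSME1, 0.39 for that of PSMB8 and PSME2, 0.41 for that of TAP1, 0.43 for that of TAP2, TAPBP and PSMB9, and -0.03 for that of ERAP1 and ERAP2. All 10 genes lay above the median of their own decile, and the part of span in their change was not tested. The genes called lower in the lists were longer. TPP2 fell in the decile with a median of -0.35. PSMD1, PSMD14, PSME4, UGGT1, LNPEP, IDE, PREP, NLN, NFKB1, JAK1 and JAK2 fell in that with a median of -0.93. CALR (5.91 kb) and PDIA3 (26.9 kb), lower by less than the fold threshold, lay within the span range of the 10 genes.

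White blood cells also express these genes at high levels, so markers of white blood cells, with HBB of red cells, were counted. Of these 16, 6 had 0 counts in all libraries, among them CD2, MS4A1, ITGAM, NKG7 and HBB, and 4 exceeded 10 counts in a library (CD14, CSF1R, LAPTM5 and CORO1A). Summed, the list stood at 111.8 to 125.8 CPM with DMSO and at 84.1 to 86.6 CPM with NCD. LAPTM5 made up most of that sum, at 114.7 CPM with DMSO and 78.8 CPM with NCD. CORO1A was called higher, from 2.03 to 4.63 CPM (log2 fold change 1.19, adjusted p = 0.000974 by edgeR), CSF1R was called lower, from 1.36 to 0.588 CPM (-1.18, adjusted p = 0.0146 by edgeR), and CD14 had 0.318 and 0.698 CPM (adjusted p = 0.0690 by edgeR). All 6 markers of mesenchymal-like triple-negative cells were present, at 6663 to 6987 CPM with DMSO and 3987 to 4368 CPM with NCD. The 8 luminal markers summed to 767 to 887 CPM with DMSO and 976 to 1162 CPM with NCD. KRT8 (mean 411.9 CPM with DMSO and 596.0 with NCD) and KRT18 (399.6 and 483.0) made up most of that sum. FOXA1 (0.172 and 1.68), EPCAM (2.71 and 4.01) and GATA3 (6.12 and 7.31) were low. ESR1, PGR and CDH1 had means of at most 0.244 CPM in either group. The part of these marker shifts in the results was not tested.

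Outside the set, the 5 genes whose log2 CPM followed the mean of the 10 most closely over the 6 libraries were PCK2, SMIM3, REEP2, VAT1 and SIX2, with Pearson r from 0.99986 for PCK2 to 0.99978 for SIX2. With a 2-group difference of this size such values are common: 1050 genes had r above 0.99. The order is a description over 6 libraries that share the same group difference.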

How the data were processed

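Bulk RNA-seq of 3 DMSO and 3 NCD libraries was analysed. The authors aligned reads with HISAT2 and deposited expected counts per Ensembl gene from RSEM, one table per library, without normalization; per the submitters' processing notes the build was GRCh38 (hg38), and tool versions, annotation release and strandedness are not given in the sources used here. Stray annotation text filled 25 lines of each file and was skipped. Symbols were found for 62666 of 63241 identifiers, and each of the 10 genes had 1 identifier. Coordinates and main transcript lengths came from GENCODE 29.

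After rounding, the counts were fitted in edgeR 4.0.16 under R 4.3.3 (filterByExpr, TMM, glmQLFit, glmQLFTest, 15295 genes). The study's methods state DESeq2 with the same fold threshold, which was run as an alternative. Standard errors were derived from the log2 fold change and its F statistic (absolute value over the root of F). Log2 ratios of gene pairs used CPM with a pseudocount of 0.5 and an exact permutation test (scipy 1.17.1) over 7 pairs. Promoter windows of 300 bases came from RefSeq (GRCh38.p14). Replicate libraries all differed beyond counting noise (chi-square per degree of freedom 2.05 to 14.4 between NCD libraries and 4.17 to 15.4 between DMSO libraries). The scripts were tested on simulated data.

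The genes and the lists beside them were chosen with earlier results of these data known. The named genes are the 10 genes, PSMB5, PSMB6 and PSMB7, in each list up to 3 genes called higher and 3 called lower with the smallest p, IFNG, IFNB1, IRF1, NLRC5 and RELA, overlapping genes that bear on the counts, and the 5 genes most like the mean of the 10. A few genes covered by the rule or the lists are not reported here. The main alternatives were DESeq2 1.42.0, limma-voom 3.58.1, library totals or ribosomal protein genes in place of TMM, calls without the fold threshold, no filter or a minimum of 10 counts per library, 2 as prior count, a pseudocount of 1 CPM, the replicate number as a block, and libraries left out. Depth limits precision for genes with few counts, and floors of 3 counts cover counting error only.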

Additional observations from a re-analysis of the deposited data

How the results depend on the processing

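All 10 genes kept their direction and an adjusted p below 0.05 in every alternative fitted across genes (highest 0.0287, for ERAP2 with scaling on ribosomal protein genes), and 3 were called higher in each except 2. Scaling by library totals called 5 higher, since PSME2 (1.03) and ERAP2 (1.02) then passed the fold threshold, and dropping that threshold called all 10. Without it, 11 constitutive proteasome genes were higher and 10 lower, 8 loading partners higher and 4 lower, 2 peptidases higher and 10 lower, 18 regulators higher and 10 lower, 11 MHC neighbours higher and 3 lower, and 10602 of all genes were called, 5393 higher and 5209 lower. Requiring at least 10 counts in every library, which tests fewer genes, called 1 MHC neighbour and 1376 of all genes higher. The log2 ratio of ERAP1 to ERAP2 differed, NCD minus DMSO, by 0.0481 without both NCD libraries of doubtful description. Without any 1 library this difference ran from -0.26 to -0.02, and the cause was not tested.

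Leaving out each library in turn gave 3 of the 10 genes called in every fit, from 2014 to 2136 genes called higher and from 2608 to 3005 lower, 3 or 4 constitutive proteasome genes lower, and 2 or 3 MHC neighbours higher. Pairing by replicate number was not borne out: deviations of same-numbered libraries correlated at 0.31, -0.27 and 0.03, and DMSO replicate 2 correlated best with NCD replicate 3 (0.42). With the replicate block 3 of the 10 genes were called higher, 10 rose at any fold, and 4723 of all genes were called against 4736 without it. Summing all Ensembl identifiers of a symbol gave no separate value, since each of the 10 genes had 1.

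At 147 to 4362 counts per library the 10 genes were measured well above the floor of 3 counts. The interferon and TNF genes, with at most 10 counts in a library, were not tested. With 3 libraries a group, the exact test of the gene pairs cannot go below p = 0.1.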
